A study of Mus musculus with 6 samples.

Results

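The proteasome and ubiquitin-conjugating genes were followed in the lens of wild-type mice and of mice homozygous for Fgf9 Y162C, a substitution in the secreted fibroblast growth factor 9. Members were all probes whose annotated gene symbol starts with Psma, Psmb, Psmc, Psmd, Psme or Ube2, which gave 108 of the 25697 probes on the array and 69 of 16593 named genes. The choice used symbols only and no measured value. Each of the 6 Illumina BeadChip arrays held total RNA from the lens of 1 mouse, 3 per genotype. Strain (C57BL/6J) and age (18 weeks) were shared by both genotypes. By label, 1 wild-type mouse was female and 2 were male, and 2 homozygous mice were female and 1 was male. No other allele or treatment is named for either group, and the labels do not say which cells of the lens gave the RNA.

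The proteasome degrades proteins that carry chains of ubiquitin. Its barrel-shaped core is built of rings of alpha subunits, which gate the entry, and rings of beta subunits, of which Psmb5, Psmb6 and Psmb7 cut peptide bonds. A cap binds ubiquitin chains, removes them and unfolds the substrate with a ring of ATPases. Conjugating enzymes, the Ube2 genes, take activated ubiquitin or a related protein and pass it, with a ligase, to the substrate. In the lens, fibre cells lose their organelles and keep their proteins for life, and the ubiquitin-proteasome pathway is known to be active in lens cells.

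Wild-type arrays had a mean deposited signal of 191 to 200.4 and homozygous arrays one of 161.6 to 165.7, and 8713 to 9671 and 7816 to 8396 probes were above background (detection p-value under 0.05). Lens markers had a summed signal of 156573 to 177485 in the wild type and 144877 to 151951 in the homozygotes. Of 15 such markers on the array, Gja3 and Pax6 were above background on 0 arrays. Photoreceptor markers summed to 3958 to 18161 and 3071 to 5335, inner retina and glia markers to 1428 to 2081 and 1072 to 1184, and pigment markers to 1332 to 3282 and 966 to 1145, in the wild type and the homozygotes. Macrophage and leukocyte markers summed to 1189 to 1327 and 1008 to 1072, and blood markers to 361.1 to 650.6 and 229.1 to 351.5. These sums are not normalized and carry the lower overall signal of the homozygous arrays. In normalized values, 9 of 11 tested lens markers were higher in the homozygous mean (median log2 fold change 0.09, 0 passing). The medians were -0.54 for photoreceptor markers (0 of 12 passing), -1.43 for inner retina and glia (4 of 6 passing, all lower) and -1.03 for pigment markers (0 of 8 passing). Wild type replicate 2, where photoreceptor and pigment markers deviated by 1.64 and 1.30 log2 units from their 6-array means, stood apart on the first principal component. Xist was above background and the Y-linked Eif2s3y was not on wild type replicate 3, whose label says male. The Fgf9 probe was above background on 0 of 6 arrays and does not check the genotype, since the change is a substitution.

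None of the proteasome or conjugating genes passed the test between genotypes. Of the 69 genes, 52 had a probe above background on at least 3 of the 6 arrays and were tested, 46 of them above background on all 6. None of the 52 was below background throughout 1 genotype. By limma's moderated test with Benjamini-Hochberg adjustment over all 8618 tested probes, 0 of 52 were changed at an adjusted p under 0.05, against 0.435% of the 6430 tested genes. At an unadjusted p under 0.05 there were 3 members, Ube2a, Ube2o and Psmd7, all lower in the homozygotes, against 9.14% of all tested genes (3.98% higher and 5.16% lower), so the share of members is no higher than that of other genes. The log2 fold change, which is positive where the homozygotes are higher, was above 0 for 28 and below 0 for 24 members. Its median was 0.03, beside 0.00 over all tested genes, and its median size regardless of sign was 0.13, beside 0.15. The groups did not overlap in 8 members, 2 with the homozygotes above and 6 with them below, against 15.1% of all tested genes (7.42% above and 7.64% below).

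The intervals hold for the brightest probe of each gene with the normalization used here, and do not cover the choice of either. The 95% confidence interval of the difference lay within 1.5-fold in either direction for 38 of 52 members and within 2-fold for 50 of 52, beside 58.9% and 94.8% of all tested genes. For the 33 tested core and cap subunits, cap chaperones and activators these counts were 27 and 33. The largest of the 33 fitted folds, in either direction, was 1.28 on these probes, and another Psmd10 probe gave 1.39. Across the processing alternatives the log2 fold change of Psmd7 went as low as -0.73, outside its interval of -0.58 to -0.01. In bulk RNA, fewer cells of a type and less RNA per cell cannot be told apart. Only 3 arrays per group limit the precision of every value.

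**Figure D1:**
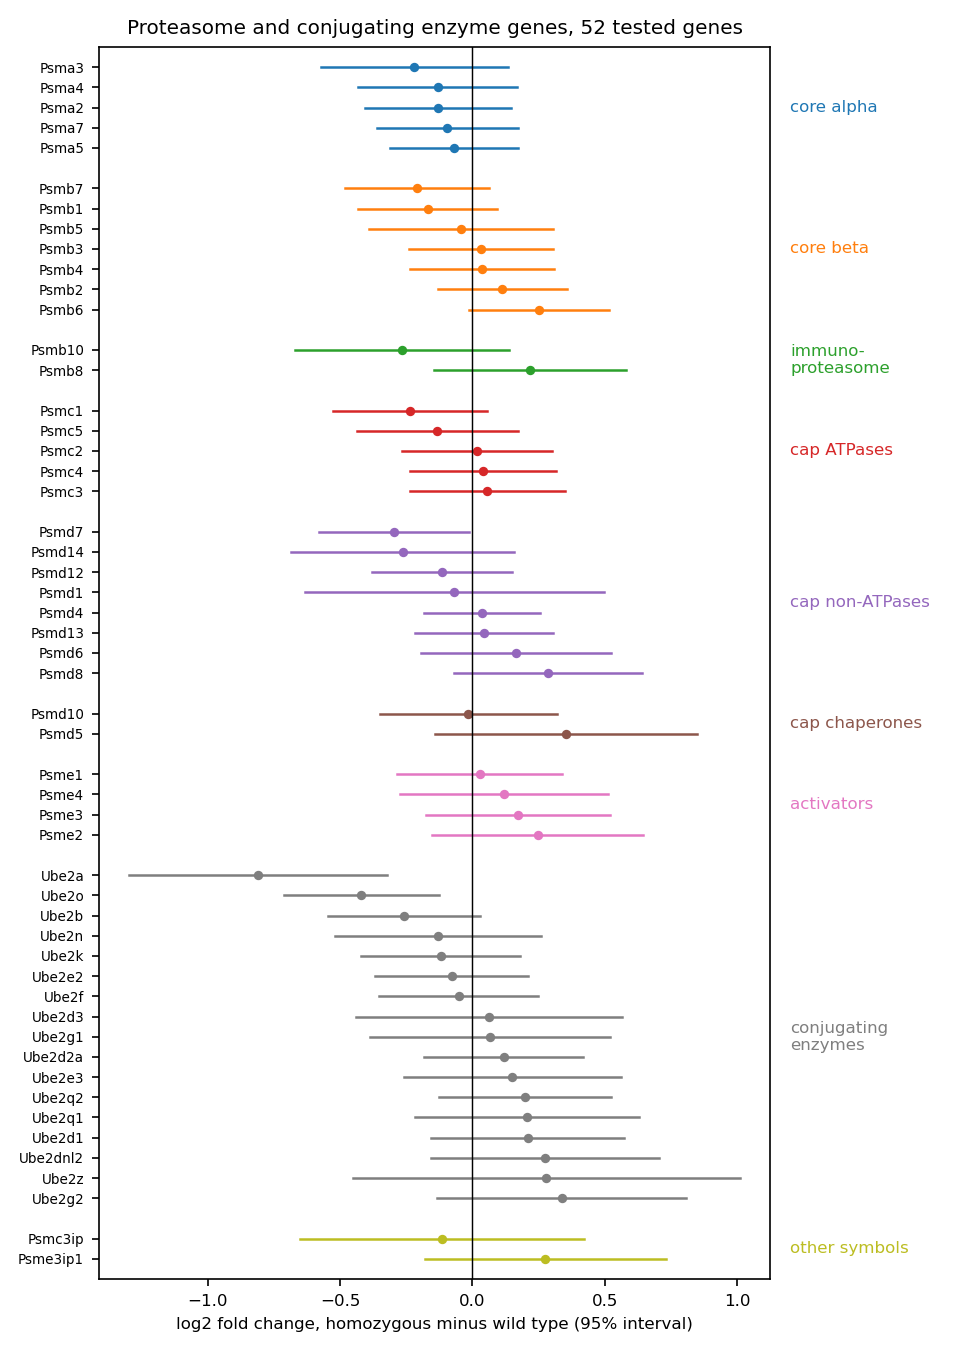
Log2 fold change (homozygous minus wild type) with its 95% confidence interval for the 52 tested genes, grouped by class. The intervals of Ube2a, Ube2o and Psmd7 lie wholly below 0, and 0 genes passed after adjustment.

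The absence of calls depended on how the arrays were brought to a common scale. Quantile normalization, used here, gives all arrays the same distribution, and it removes the difference in mean signal between the genotypes. With each array scaled to its median over all probes instead, 16 of the 52 members (30.8%) passed, all 16 lower in the homozygotes. This compares with 10.2% of all tested genes called lower. The median of all tested genes then stood at -0.32 and that of the members at -0.41. The shift was larger in bright genes. For tested genes with a mean log2 signal above 8 it was -0.43 and 29% were called lower, beside -0.29 and 6.29% for the other tested genes. For the 26 members above that level it was -0.53 and 14 (53.8%) were called. For the other 26 members it was -0.25 and 2 (7.69%) were called. With quantile normalization the medians were -0.09 for the members above that level and 0.16 for the other members. Those of all tested genes above and below it were 0.005 and -0.0009. All 5 tested alpha subunits were among the 16, with 2 of 7 constitutive beta subunits, 1 of 2 immunoproteasome subunits, 2 of 5 cap ATPases, 2 of 8 other cap subunits and 4 of 17 conjugating enzymes. When arrays were scaled to the median of the probes above background on all 6 arrays, 0 members passed. The median of all tested genes then stood at 0.08 and that of the members at -0.01.

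**Figure D2:**
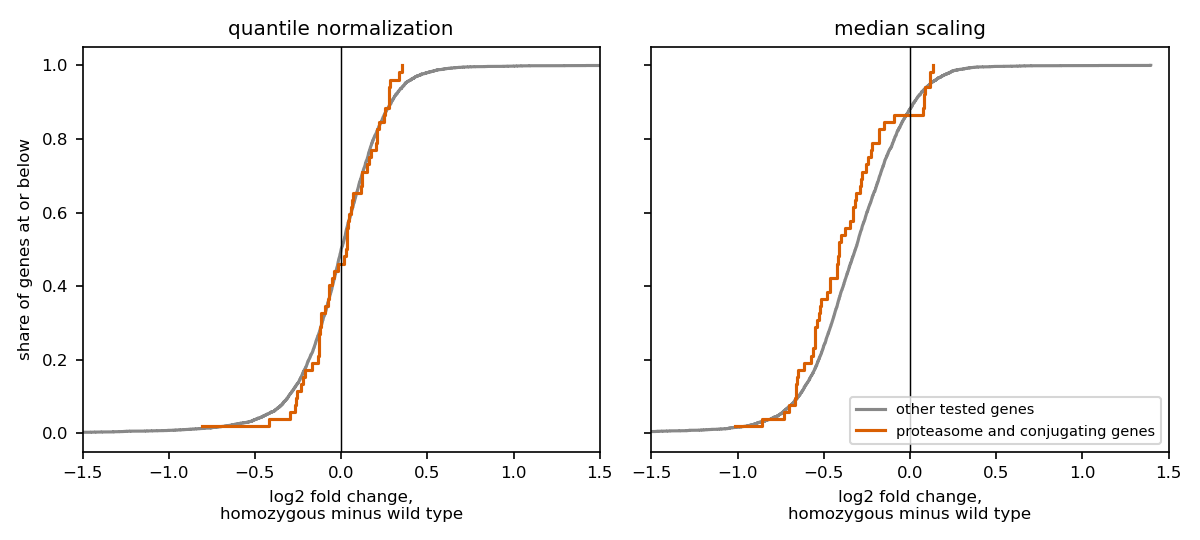
Cumulative share of genes by log2 fold change (homozygous minus wild type) under quantile normalization (left) and median scaling over all probes (right), for members and for the other tested genes. Under quantile normalization both curves cross the middle near 0, and under median scaling both lie to the left of 0, with medians of -0.41 for the members and -0.32 for all tested genes.

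The alpha rings were represented by Psma2, Psma3, Psma4, Psma5 and Psma7, of which 0 passed. All 5 log2 fold changes were below 0, from -0.22 to -0.07, with a median of -0.13, and the groups overlapped in each. Psma3 had log2 signals of 9.78, 10.16 and 9.43 in the wild type and 9.55, 9.60 and 9.56 in the homozygotes. The wild-type values lie on both sides of the homozygous ones and are spread far wider, with an SD of 0.36 against 0.03. Its log2 fold change was -0.22 (SE 0.16, n = 3 per group, limma adjusted p = 0.711). Without wild type replicate 2 it was -0.04. Psma2 read 10.73, 11.18 and 10.83 in the wild type and 10.86, 10.77 and 10.73 in the homozygotes (log2 fold change -0.13, limma adjusted p = 0.788). Its highest value is that of wild type replicate 2, and without that array the log2 fold change was 0.01. Over the 5 alpha genes, the mean deviation from the 6-array mean was 0.19 on wild type replicate 2 and -0.17 on homozygous replicate 3, and between -0.03 and 0.02 on the other 4 arrays.

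All 7 constitutive beta subunits were tested and 0 passed, with log2 fold changes from -0.21 to 0.25 and intervals within 1.5-fold for each. Psmb6 carries the caspase-like activity of the core. It read 8.98, 9.28 and 9.12 in the wild type and 9.38, 9.40 and 9.36 in the homozygotes. The homozygous values lie above all wild-type values and close to each other. The log2 fold change was 0.25 (SE 0.12, 95% interval -0.01 to 0.52, limma adjusted p = 0.584), and it became -0.18 with median scaling. Psmb5, the chymotrypsin-like subunit, read 6.84, 7.18 and 7.07 in the wild type and 6.96, 6.89 and 7.11 in the homozygotes. The groups overlap, with a log2 fold change of -0.04 (95% interval -0.39 to 0.30, limma adjusted p = 0.956). Psmb7, the trypsin-like subunit, read 9.67, 9.66 and 9.99 in the wild type and 9.56, 9.64 and 9.50 in the homozygotes on its brightest probe. The homozygous values lie just below the others (log2 fold change -0.21, limma adjusted p = 0.652), but the other tested probes of Psmb7 gave 0.16 and 0.14. Among the subunits that do not cut, Psmb1 had a log2 fold change of -0.17 and Psmb2 one of 0.11.

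The immunoproteasome subunits replace the cutting subunits in immune cells and after interferon: Psmb8 replaces Psmb5, Psmb9 replaces Psmb6 and Psmb10 replaces Psmb7. Psmb9 was above background on 0 of 6 arrays, with deposited signals of 80.5 to 93.0. Psmb8 reached detection on 1 wild-type and 2 homozygous arrays. It read 4.95, 4.69 and 4.55 in the wild type and 4.81, 5.02 and 5.01 in the homozygotes (log2 fold change 0.22, limma adjusted p = 0.719), which overlap close to the detection limit. Psmb10 was above background on all 6 arrays. It read 6.40, 6.16 and 6.46 in the wild type and 6.33, 5.88 and 6.01 in the homozygotes (log2 fold change -0.27, SE 0.19, limma adjusted p = 0.695). A second Psmb10 probe gave -0.25. The groups overlap through homozygous replicate 1. Among all tested genes, 7.64% had homozygous values below all wild-type values and 7.42% had them above. Of the 5 tested leukocyte markers, 4 had homozygous values below all wild-type values and 1, Aif1, had them above, with a median log2 fold change of -0.61. Only the lysosomal gene Laptm5 among these 5 passed (limma adjusted p = 0.0113), with log2 signals of 5.36 to 5.88 in the wild type and 4.41 to 4.47 in the homozygotes. C1qa, Ptprc and Tyrobp, other defining markers, were above background on 0 arrays. The part of leukocyte RNA in the Psmb10 values was not tested.

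**Figure D3:**
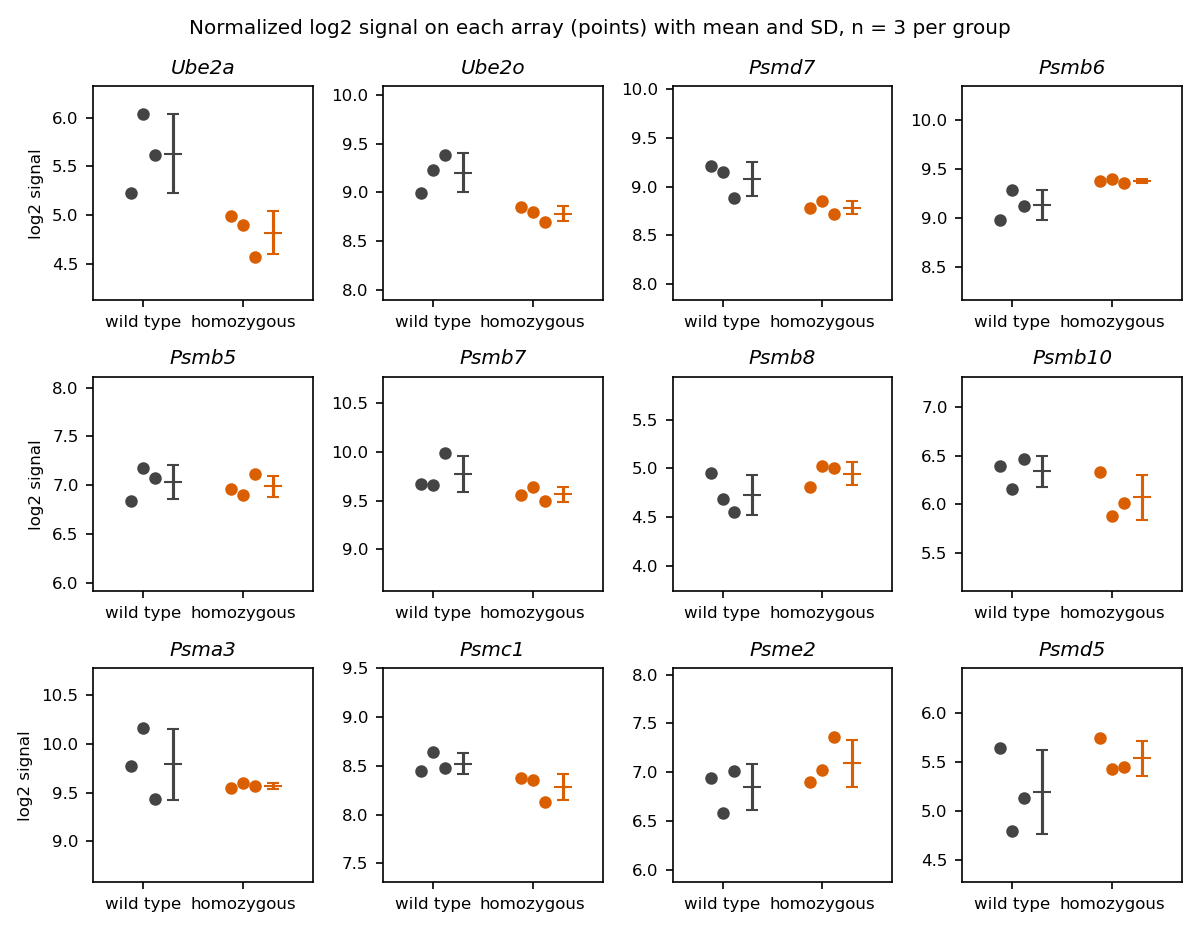
Normalized log2 signal of 12 genes on each array (points; wild type and homozygous, n = 3 each) with the mean and SD of each group beside the points. Every panel spans the same 2.2 log2 units, and the homozygous points lie below all wild-type points for Ube2a, Ube2o, Psmd7, Psmb7 and Psmc1 and above them for Psmb6. The panels are a selection. The groups did not overlap in 8 of the 52 tested members, against 15.1% of all tested genes.

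The ring of cap ATPases, which unfolds substrates, had 5 tested members and 0 passed. Its log2 fold changes ran from -0.24 to 0.06, and each interval lay within 1.5-fold. Psmc1 read 8.44, 8.64 and 8.48 in the wild type and 8.37, 8.35 and 8.13 in the homozygotes, which do not overlap (log2 fold change -0.24, SE 0.13, limma adjusted p = 0.631). Psmc5 had a log2 fold change of -0.13 and its second probe one of -0.06. Psmc2, Psmc3 and Psmc4 stood at 0.02, 0.06 and 0.04.

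Of 8 tested non-ATPase cap subunits 0 passed. Psmd7 and Psmd14 form the pair that holds the cap's deubiquitinating site, which Psmd14 provides. Psmd7 read 9.21, 9.15 and 8.88 in the wild type and 8.78, 8.86 and 8.72 in the homozygotes. The groups do not overlap, but the gap between the lowest wild-type and the highest homozygous value is small beside the wild-type SD of 0.17. The log2 fold change was -0.30 (SE 0.13, 95% interval -0.58 to -0.01, limma adjusted p = 0.531). Its second probe, with 8.32, 8.01 and 8.17 in the wild type and 8.31, 8.18 and 8.14 in the homozygotes, gave 0.04. Psmd14 had a log2 fold change of -0.26 (SE 0.19, limma adjusted p = 0.708). The lid subunits Psmd8 and Psmd6 stood at 0.28 and 0.16, the first at -0.15 with median scaling. Psmd12, another lid subunit, had non-overlapping groups on both of its probes, with log2 fold changes of -0.11 and -0.25 that did not pass. It was among the 16 genes that passed with median scaling. Psmd4, a ubiquitin receptor of the cap, read 12.56, 12.31 and 12.56 in the wild type and 12.56, 12.43 and 12.54 in the homozygotes, a log2 fold change of 0.04 with an interval of -0.18 to 0.26.

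The cap chaperones Psmd5 and Psmd10 help the ATPase ring to form and are absent from the finished particle. Psmd5 read 5.65, 4.79 and 5.13 in the wild type and 5.75, 5.43 and 5.45 in the homozygotes (log2 fold change 0.35, SE 0.23, limma adjusted p = 0.668). Wild type replicate 1 lies among the homozygous values. Psmd10, also called gankyrin, gave different values by probe. Its brightest probe and a further probe both gave a log2 fold change near 0 (-0.02 and -0.01). Another probe read 7.62, 7.52 and 7.48 in the wild type and 7.87, 8.08 and 8.09 in the homozygotes, without overlap, and gave 0.47 (SE 0.14, unadjusted p = 0.00514, limma adjusted p = 0.281).

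Activators dock on the core in place of the cap. Psme1 and Psme2 form the interferon-inducible ring, Psme3 forms a nuclear one and Psme4 is a single large protein. All 4 were tested and 0 passed, with log2 fold changes of 0.03, 0.25, 0.17 and 0.12. The values leaned on 1 array: the class deviated by 0.30 on homozygous replicate 3 and by -0.09 to -0.04 on the other 5. Psme2 read 6.94, 6.58 and 7.02 in the wild type and 6.89, 7.02 and 7.36 in the homozygotes (limma adjusted p = 0.714). The second probe of Psme1 read 7.18, 7.16 and 7.32 in the wild type and 7.51, 7.56 and 7.59 in the homozygotes. These do not overlap, and the log2 fold change of this probe was 0.33 (SE 0.14, limma adjusted p = 0.498), against 0.03 on the brighter probe. With median scaling Psme2 and Psme3 stood at -0.18 and -0.24.

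**Figure D4:**
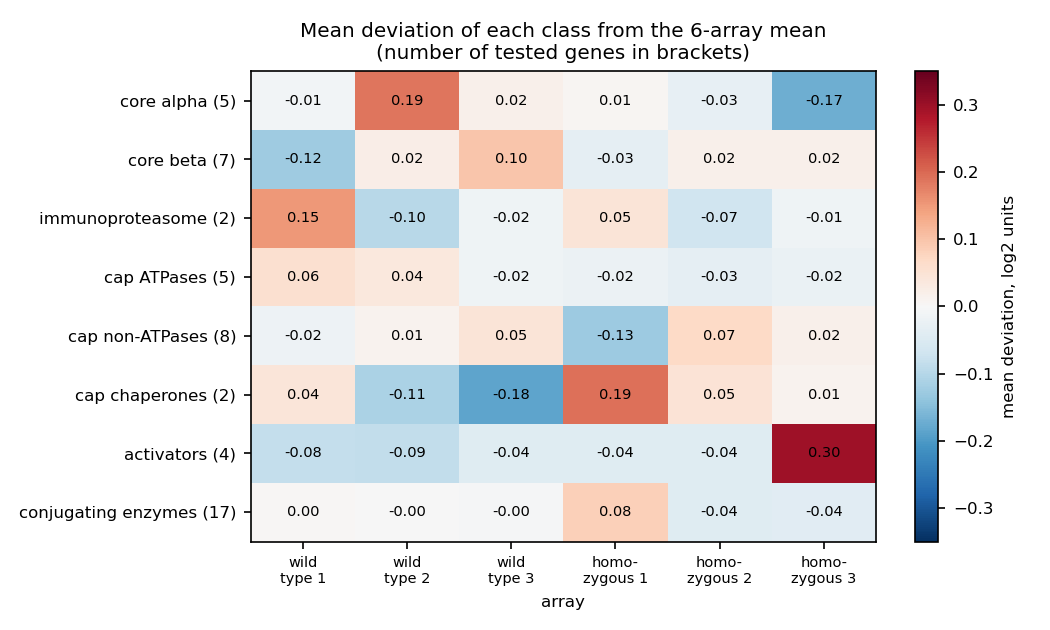
Mean deviation of each class from its 6-array mean on each array, in log2 units, with the number of tested genes in brackets. The activators deviate by 0.30 on homozygous replicate 3 and the alpha subunits by 0.19 on wild type replicate 2, and the 17 conjugating enzymes stay between -0.04 and 0.08.

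Conjugating enzymes had 27 genes on the array, of which 17 were tested and 0 passed. On the log2 scale, 10 fold changes were positive and 7 negative, with a median of 0.07. The lowest adjusted p of all members was that of Ube2a, which with its close relative Ube2b conjugates ubiquitin to histones and to the replication clamp. Ube2a read 5.23, 6.04 and 5.62 in the wild type and 4.99, 4.90 and 4.57 in the homozygotes. The groups do not overlap, the homozygous values are close to the detection limit, and homozygous replicate 3 was not above background. Its log2 fold change was -0.81 (SE 0.22, 95% interval -1.30 to -0.32, unadjusted p = 0.00354, limma adjusted p = 0.254). Without background correction it was -0.31 (limma adjusted p = 0.304), without wild type replicate 1 it had a limma adjusted p of 0.0506 and without wild type replicate 2 it was -0.56. Ube2a lies on the X chromosome, and with sex as labelled as a covariate its limma adjusted p was 0.459. That covariate takes wild type replicate 3 as male. Eif2s3y was above background only on wild type replicate 2 and homozygous replicate 3, and the brighter Xist probe only on the other arrays. The highest Ube2a value, 6.04, was on wild type replicate 2 and the lowest, 4.57, on homozygous replicate 3. Sex by expression was not tested. Ube2b, on a separate chromosome, read 9.62, 9.95 and 9.93 in the wild type and 9.68, 9.64 and 9.41 in the homozygotes (log2 fold change -0.26, limma adjusted p = 0.606), with overlap through wild type replicate 1.

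Ube2o is a large enzyme that joins conjugating and ligase activity and is known for clearing unassembled ribosomal proteins in red cell precursors. It read 8.99, 9.23 and 9.38 in the wild type and 8.85, 8.80 and 8.69 in the homozygotes. The groups do not overlap, and the homozygous SD was 0.08 against 0.20. The log2 fold change was -0.42 (SE 0.13, 95% interval -0.71 to -0.13, unadjusted p = 0.00872, limma adjusted p = 0.34). Hba-a1, an alpha globin gene and the single tested blood marker of 3 on the array, read 6.93, 8.36 and 8.20 in the wild type and 7.10, 5.08 and 4.44 in the homozygotes. Alas2 and Hbb-b2 were above background on 0 arrays. The part of blood RNA in the Ube2o values was not tested.

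Among enzymes for other chains and modifiers, Ube2n builds non-degradative ubiquitin chains with a partner such as Ube2v2. For Ube2n the fold change was -0.13 on the log2 scale (limma adjusted p = 0.86), and Ube2v2 was above background on 1 of 6 arrays. Ube2f, which loads the modifier Nedd8 onto a cullin, had 4 tested probes with log2 fold changes of -0.05, -0.06, 0.10 and -0.34. Ube2l6, the enzyme for the interferon-induced modifier Isg15, was not tested. It reached detection on 0 wild-type and 2 homozygous arrays, and its deposited signals were 86.7 to 97.3. No fold is given, since homozygous replicate 1 was also not above background. The enzymes of protein disposal at the endoplasmic reticulum were Ube2g1 and Ube2g2, with 0.07 and 0.34 (limma adjusted p = 0.948 and 0.668), and Ube2j1 and Ube2j2, which were not tested. Ube2d1, Ube2d2a and Ube2d3, enzymes that serve many ligases, stood at 0.21, 0.12 and 0.06. Ube2dnl2, a related gene by name, stood at 0.27. Whether a probe of these genes binds more than 1 of their transcripts was not tested. Ube2q2 had homozygous values of 6.86 to 6.93, above wild-type values of 6.64 to 6.73 (log2 fold change 0.20, limma adjusted p = 0.714). An untested Ube2q2 probe, above background on 2 wild-type and 0 homozygous arrays, separated the groups the other way, with 4.80, 5.02 and 4.57 in the wild type and 4.33, 4.53 and 4.40 in the homozygotes.

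Psmc3ip and Psme3ip1 were members by symbol but are named for proteins that bind a subunit, and are not subunits. Their log2 fold changes were -0.11 and 0.28 (limma adjusted p = 0.92 and 0.719), and the second probe of Psme3ip1 gave -0.11.

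The remaining 17 genes were not tested, and 10 of them were above background on 0 of 6 arrays. Those 10 include Psma1, Psma6, Psmc6 and Psmd2, obligatory parts of a particle whose other subunits were detected. The deposited signals of these 4 genes lay between 67.5 and 93.6 on the 6 arrays. Psmd9 was above background on 1 array, and each of 2 Psmd11 probes on a different single wild-type array. Why these probes read at background was not tested. Of the conjugating enzymes, Ube2c and Ube2s, which serve the anaphase-promoting complex in dividing cells, and Ube2t, which serves DNA crosslink repair, were above background on 0 arrays. Ube2r2 and Ube2u were also at background. Ube2e1 was above background on 2 wild-type arrays and 0 homozygous arrays.

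Probes of the same gene gave a second measure of spread beside the replicates. Whether they read the same transcripts was not tested. Of 29 genes with several probes, 15 had several tested probes, and in 6 of the 15 (Psmb7, Psmd7, Psmd10, Psme3ip1, Ube2f and Ube2g1) the probes differed in sign. The widest span was 0.49 log2 units in Psmd10. In Psma7, Psmb10, Psmb2 and Ube2d2a the probes spanned at most 0.02.

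**Figure D5:**
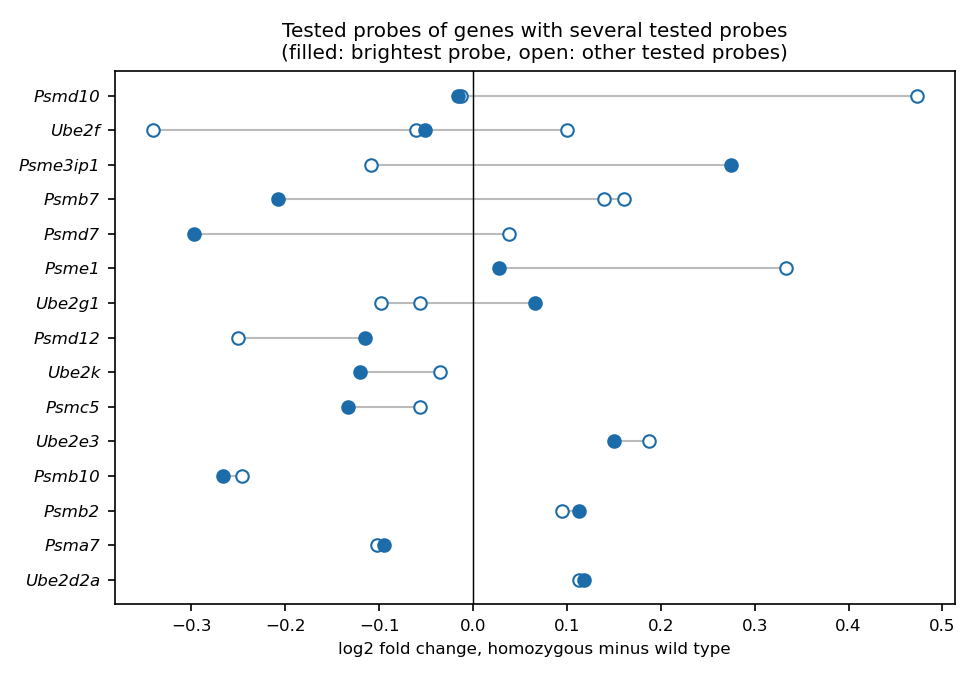
Log2 fold change (homozygous minus wild type) of every tested probe of the 15 genes with several tested probes, ordered by span. Filled points are the brightest probe and open points the others, and the spans run from 0.01 in Ube2d2a to 0.49 in Psmd10.

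Replicates were tighter in the homozygotes. In 37 of 52 members (71.2%) the SD was larger in the wild type than in the homozygotes, beside 57.3% of all tested genes.

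Proteasome genes are known to be induced together by Nfe2l1, a transcription factor that is activated when the proteasome is impaired and binds antioxidant response elements. Nfe2l1 itself read 8.51, 9.09 and 9.18 in the wild type and 8.52, 8.52 and 8.68 in the homozygotes. Wild type replicate 1 lies with the homozygotes, and the log2 fold change was -0.35 (SE 0.17, limma adjusted p = 0.589). Its partner Mafg stood at 0.28 (limma adjusted p = 0.748), and of the 8 such regulators on the array only these 2 were tested. The core of that element, TGACNNNGC on either strand, was found in the window from 250 bases before to 50 after the RefSeq start in 6 of 35 subunit, chaperone and activator genes with a promoter sequence (17.1%), beside 14% of 27025 genes. The 4 conjugating enzymes of 22 with the motif are 18.2%. A core of the interferon-stimulated response element, GAAA on each side of any pair of bases, on either strand, was found in 4 of the 35 (11.4%) and in 0 of the 22, beside 3.99% of all. Psmb5 and Psmb6 had log2 fold changes of -0.04 and 0.25, of which neither passed. They are shown because they are constitutive cutting subunits whose window holds the antioxidant core. Psmb7, the other such subunit, had no promoter sequence and was not searched. The windows are from RefSeq on GRCm38.p6 (Psmb5 on the minus strand at chr14:54617946-54618245, Psmb6 on the plus strand at chr11:70525107-70525406), with the motif match in capitals.
Psmb5: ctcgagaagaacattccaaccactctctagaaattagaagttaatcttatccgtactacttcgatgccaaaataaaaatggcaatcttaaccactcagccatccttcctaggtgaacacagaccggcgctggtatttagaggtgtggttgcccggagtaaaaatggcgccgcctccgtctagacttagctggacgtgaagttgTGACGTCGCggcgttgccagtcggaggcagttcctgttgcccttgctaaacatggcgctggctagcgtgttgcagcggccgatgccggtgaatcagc
Psmb6: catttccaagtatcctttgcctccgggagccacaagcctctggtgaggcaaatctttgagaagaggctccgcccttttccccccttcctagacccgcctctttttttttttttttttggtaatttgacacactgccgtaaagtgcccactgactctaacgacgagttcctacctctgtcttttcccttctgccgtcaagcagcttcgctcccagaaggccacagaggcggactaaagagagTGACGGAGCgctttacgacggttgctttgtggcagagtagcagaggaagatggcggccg
A match is a description of the letters and not evidence of binding. The letters TGACNNNGC were not found in the windows of Psmb8, Psmb9 and Psmb10, nor were those of the interferon element.

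In position, Psme1 and Psme2 lie on chromosome 14 with 1 other protein-coding gene between them, and Psmb8 and Psmb9 on chromosome 17 likewise.

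Other genes of the pathway also gave 0 changed genes in each list by limma. At an unadjusted limma p under 0.05 there were only 1 of 6 tested deubiquitinases and 2 of 8 tested interferon genes, against 9.14% of all tested genes. Proteasome assembly factors had 5 tested genes of 6 on the array, with log2 fold changes from -0.18 to 0.09, the extremes being the chaperones Psmg3 and Psmg2. These became 0.03 without homozygous replicate 3 and -0.03 without wild type replicate 2. Ubiquitin and its relatives had 5 tested of 8, among them Fau at -0.29, which did not pass. Sumo3 read 8.87, 6.92 and 8.15 in the wild type and 8.52, 8.21 and 8.39 in the homozygotes. Its log2 fold change of 0.40 rested on wild type replicate 2 and was -0.13 without that array. Activating enzymes had 4 tested of 6. Uba3, a subunit of the Nedd8-activating enzyme, reached detection on 3 wild-type and 0 homozygous arrays. Its log2 fold change was -0.31, with an interval of -0.64 to 0.02 that includes 0 (limma adjusted p = 0.582). Uba3 entered the test through its 3 wild-type arrays alone, so the detection counts are not separate evidence of a difference. Sae1, of the Sumo-activating enzyme, stood at 0.25. Deubiquitinases had 6 tested of 7, and Uchl3, which trims ubiquitin precursors and small adducts, read 6.21, 6.83 and 6.02 in the wild type and 5.77, 5.27 and 6.02 in the homozygotes. The groups do not overlap but nearly meet at 6.02, and the log2 fold change was -0.67 (SE 0.25, limma adjusted p = 0.433). Otub1 stood at -0.31, without overlap. Shuttle and extraction factors had 9 tested of 10, with Ubqln4 at -0.31 and Bag6 at -0.20. Ligases had 17 tested of 22, between -0.38 for Ube3b and 0.27 for Cul1.

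Interferon and antigen presentation genes had 8 tested of 16 and 0 passed, 4 with a log2 fold change above 0 and 4 below. Usp18, the enzyme that removes Isg15, read 5.11, 5.37 and 5.09 in the wild type and 6.08, 5.90 and 5.73 in the homozygotes. The groups do not overlap, and the log2 fold change was 0.71 (SE 0.18, unadjusted p = 0.00234, limma adjusted p = 0.204). Ifit3, an interferon-induced gene, stood at -0.64 (limma adjusted p = 0.458), so the genes of smallest p in this list point in opposite directions.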

How the data were processed

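Lens RNA of 3 wild-type and 3 homozygous mice was measured on 1 Illumina BeadChip per mouse. Per the file headers, the deposited signal is a linear intensity per probe, not normalized, with a detection p-value beside it that the authors' software gave. The authors' processed values are a background-subtracted linear intensity of the same arrays, normalized by a method not given in the sources used here. The submitters' processing notes name GenomeStudio 2011.1.

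Using limma 3.58.1 (R 4.3.3), a normal-exponential background correction was applied with negative controls inferred from detection p-values (offset 16), arrays were quantile normalized and log2 was taken. The offset pulls fold changes of dim probes toward 0. Testing was limited to the 8618 probes detected (p-value under 0.05) on 3 or more of 6 arrays, and the brightest tested probe stands for a gene. Genotype was the only term in lmFit and eBayes with an intensity trend, two-sided. Gene symbols came from the platform annotation (23978 probes with a symbol, 1719 without), and all 69 member symbols matched RefSeq by gene identifier. The fit was also run on simulated data, with the spreads shuffled across probes. The relation of spread to intensity was thus not simulated, and no result here rests on this step.

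The rule for members used symbols only, but it and the lists were set with earlier results of these data known. Genes named are the 4 of smallest p in classes of at least 6 tested genes or else 2, the cutting subunits, the named special enzymes, genes whose probes differ in sign, and in each other list the 2 of smallest p. Further genes, among them Psmd12, Psmd4, Ube2q2 and those listed to complete a class, were chosen after their values were seen. Median scaling over detected probes and the level of 8 were also chosen after the data were seen. Alternatives were other background corrections, normalizations, filters and variance models, the mean of a gene's probes, array weights, sex as labelled, the replicate number and each array left out. Slide as a block was not run, since the headers used here name no slide.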

Additional observations from a re-analysis of the deposited data

How the results depend on the processing

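The count of changed proteasome and conjugating genes was 0 in every alternative except median scaling over all probes, where it was 16. The number of all changed genes, 28, was 18 with an offset of 50, 17 with no background correction, 658 with median scaling, 0 with the authors' processed values, 18 with the mean of a gene's probes, 16 with no intensity trend, 60 with array weights and 17 with sex as labelled as a covariate, which takes wild type replicate 3 as male. With the replicate number as a block (replicate block) it was 102, and 0 members passed. The deviations of same-numbered arrays correlated at 0.20, 0.19 and -0.03, 1 of 3 wild-type arrays did not correlate best with its own number, and the labels give no pairing. Leaving out 1 array gave 9 (without homozygous replicate 2 or 3) to 72 (without wild type replicate 1) changed genes and 0 members. The median log2 fold change of the members, 0.03, was -0.41 with median scaling, 0.00032 with the stricter filter, 0.011 with array weights and -0.0093 with median scaling over detected probes, and ran from -0.0481 (without wild type replicate 1) to 0.0263 when 1 array was left out. The 16 that passed under median scaling, all lower, were Psma2, Psma3, Psma4, Psma5, Psma7, Psmb1, Psmb7, Psmb10, Psmc1, Psmc5, Psmd7, Psmd12, Ube2a, Ube2b, Ube2k and Ube2o. The cause of the shift with median scaling was not tested. The simulated-data step covered the fit only, not the scaling of arrays. Signal near background limits Psmb8, Psmd1, Psmd6, Ube2a, Ube2d1 and Ube2z, each above background on fewer than 6 arrays. It also limits members above background on all 6, among them Psmd5, Ube2g2 and Ube2dnl2. Their deposited signals were 99.8 to 122.3, 97.9 to 118.1 and 91.6 to 109.5. Slide as a block was not run.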
